A study of Homo sapiens with 5 samples.

Results

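The introns described here were retained more in polyadenylated RNA when WBP11 was removed with a degron, and rose less than a set limit, or not at all, when WBP11 or SNW1 was lowered with siRNA. They were chosen by their measured retention, the share of reads at an intron that keep it, as the program IRFinder reports it. An intron was taken when its retention was at least 10 percentage points above the control in the auxin comparison and less than 10 points above the control in both siRNA comparisons. It also had to be listed in all 3 tables and to have a summed intron depth and spliced read count of at least 10 in both libraries of each table. The rule found 730 introns in 629 genes, out of 8601 introns in 3919 genes that were measured in all 3 tables, a share of 8.49%. In total, 34560 introns were listed in at least 1 table. The retention values that chose these introns are given as a description without a test.

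PolyA RNA was sequenced in 5 libraries of the human colorectal adenocarcinoma line DLD-1. All libraries came from the DLD-1 LacZeo background, and each group had 1 library, so no replicate error is known for any value. The control of the siRNA comparisons is labelled without treatment, and the file headers call it control RNAi. The WBP11 RNAi and SNW1 RNAi cells received 100 nM siRNA for 72 h and were both compared with that 1 control library. The auxin control was the line with osTIR1, the plant auxin receptor, and received 500 µM auxin for 48 h. The WBP11 auxin cells received the same auxin in the osTIR1 background, and the design text says that their WBP11 came from an AID-tagged transgene in cells whose own WBP11 gene was knocked out. Degron cells kept free of auxin were not analysed here, so differences between the lines and loss of WBP11 cannot be told apart. In bulk RNA, more cells that retain an intron and more retention per cell cannot be told apart either.

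Splicing removes introns in the spliceosome, a machine of small nuclear RNAs and proteins that recognises the 5′ splice site, the branch site and the 3′ splice site. WBP11 is a spliceosome component that binds the WW domains of PQBP1 and interacts with protein phosphatase 1. SNW1, also known as SKIP, is part of the activated spliceosome. A degron tag lets the plant receptor osTIR1 mark the tagged protein for degradation when auxin is added, whereas siRNA lowers the messenger RNA. A transcript that keeps an intron often carries a premature stop codon and is held in the nucleus or degraded.

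The sequences below are those of members with the largest rises that lie between coding exons and are at most 120 bp long. Only introns for which a transcript holding them was at hand are shown. Because length was part of this choice, the sequences do not show how short the members are as a set. They were read 5′ to 3′ from GENCODE 29 transcripts that include the intron, and coordinates are hg38. Capitals mark the first 6 and the last 3 bases, where the 5′ and 3′ splice sites lie.
GCLC intron 13, chr6:53500351-53500431, minus strand: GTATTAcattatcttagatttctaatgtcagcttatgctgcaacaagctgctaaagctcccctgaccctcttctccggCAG
KDM3A intron 23, chr2:86489438-86489519, plus strand: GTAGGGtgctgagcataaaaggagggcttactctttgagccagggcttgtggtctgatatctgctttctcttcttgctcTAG
RBM5 intron 19, chr3:50114100-50114179, plus strand: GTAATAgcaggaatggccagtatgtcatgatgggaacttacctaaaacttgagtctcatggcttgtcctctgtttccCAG
XPO1 intron 8, chr2:61498793-61498864, minus strand: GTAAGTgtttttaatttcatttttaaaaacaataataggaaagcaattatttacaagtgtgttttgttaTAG
NCAPD2 intron 7, chr12:6514393-6514463, plus strand: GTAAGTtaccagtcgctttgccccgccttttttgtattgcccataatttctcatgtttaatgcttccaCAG
CRY1 intron 11, chr12:106992891-106992964, minus strand: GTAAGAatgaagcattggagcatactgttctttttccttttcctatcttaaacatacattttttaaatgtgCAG

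These 6 introns were between 71 and 82 bp long, and their GC content ranged from 20.8% in XPO1 to 48.8% in KDM3A. All began with GT and ended with AG, as did each of the 196 members (26.8%) with a sequence at hand. For comparison, 4 introns of up to 85 bp that rose in no table are shown, those with the smallest differences among the 39 candidates with a sequence and a depth of at least 100. This choice was made after the values were seen.
H3-3B intron 2, chr17:75778964-75779046, minus strand: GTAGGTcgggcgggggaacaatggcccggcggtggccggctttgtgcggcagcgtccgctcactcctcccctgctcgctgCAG
BRIX1 intron 7, chr5:34923052-34923132, plus strand: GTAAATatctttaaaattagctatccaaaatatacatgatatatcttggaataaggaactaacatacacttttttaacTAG
AP2A1 intron 20, chr19:49805577-49805660, plus strand: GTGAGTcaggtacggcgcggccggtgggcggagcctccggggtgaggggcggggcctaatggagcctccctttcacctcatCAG
DDX5 intron 6, chr17:64503349-64503429, minus strand: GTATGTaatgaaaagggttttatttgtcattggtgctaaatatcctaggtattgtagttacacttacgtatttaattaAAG

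The comparison introns also began with GT and ended with AG, and were 81 to 84 bp long. Their GC content spanned 23.5% in BRIX1 to 72.3% in H3-3B, a range that overlaps that of the members shown. Pyrimidines made up 10 to 16 of the last 20 bases in both sets. H3-3B encodes a replication-independent histone H3, BRIX1 acts in ribosome assembly, AP2A1 is a clathrin adaptor subunit and DDX5 is an RNA helicase. DDX5 intron 6 was retained at 2.27% in both the auxin control and WBP11 auxin. It was chosen for its small differences, and it shares the GT and AG ends with the members shown. Its capitalised bases match those of no member shown in full, but the members shown also differ among themselves there.

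The largest rise was in GCLC intron 13, of 81 bp, in the gene of the catalytic subunit that carries out the rate-limiting step of glutathione synthesis. Its retention was 4.47% in the auxin control and 67.9% in WBP11 auxin, against 0.246% in the siRNA control, 5.83% in WBP11 RNAi and 1.38% in SNW1 RNAi. The rise of 63.5 points had a 95% counting interval of 56.7 to 68.1 points. The WBP11 auxin library alone stood high, and the other 4 lay within 6 points of each other. PPP2R5C intron 4, of 82 bp at chr14:101883350-101883431 on the plus strand, was retained at 1.49% in the auxin control and 64.5% in WBP11 auxin. It was retained at 0.0549% in the siRNA control, 9.19% in WBP11 RNAi and 1.24% in SNW1 RNAi. This regulatory subunit of a serine/threonine phosphatase therefore had a rise of 9.14 points in WBP11 RNAi, just under the limit of 10 points. Recomputed with only the reads spliced exactly at both ends of the intron, its auxin rise was 69.0 points in place of 63.0 points.

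KDM3A, a histone demethylase, and RBM5, an RNA-binding regulator of splicing, followed. KDM3A intron 23 went from 4.44% to 66.1% with auxin, and was at 3.86%, 7.68% and 2.47% in the siRNA control, WBP11 RNAi and SNW1 RNAi. RBM5 intron 19 went from 5.02% to 66.1%, and was at 0.905%, 8.40% and 1.87% in the same 3 libraries. In both genes the WBP11 RNAi value lay 3.83 and 7.50 points above its control and the SNW1 RNAi value lay within 2 points of it.

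CCS intron 6, of 72 bp at chr11:66605417-66605488 on the plus strand, lies in the gene of the copper chaperone of superoxide dismutase. It was retained at 1.54% in the auxin control, 62.1% in WBP11 auxin, 0.870% in the siRNA control, 8.91% in WBP11 RNAi and 3.51% in SNW1 RNAi. XPO1 intron 8, in the main nuclear export receptor, was at 2.52%, 62.6%, 2.06%, 9.10% and 4.98% in the same order. NCAPD2 encodes a condensin subunit, and its intron 7 was at 3.49%, 63.3%, 2.36%, 5.13% and 1.87%. CRY1, a repressor in the circadian clock, had the same form: intron 11 was at 6.51%, 64.6%, 4.46%, 9.38% and 5.38%. LRP8, a lipoprotein receptor that binds reelin, differed in that its intron 7 was already at 11.2% in the auxin control, against 1.42% in the siRNA control. It reached 68.1% in WBP11 auxin, 9.22% in WBP11 RNAi and 11.2% in SNW1 RNAi, so its SNW1 RNAi rise of 9.78 points was close to the limit. TMEM18 intron 4, the last intron of its transcript, was at 1.66%, 57.7%, 1.27%, 3.35% and 1.5%.

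**Figure D1:**
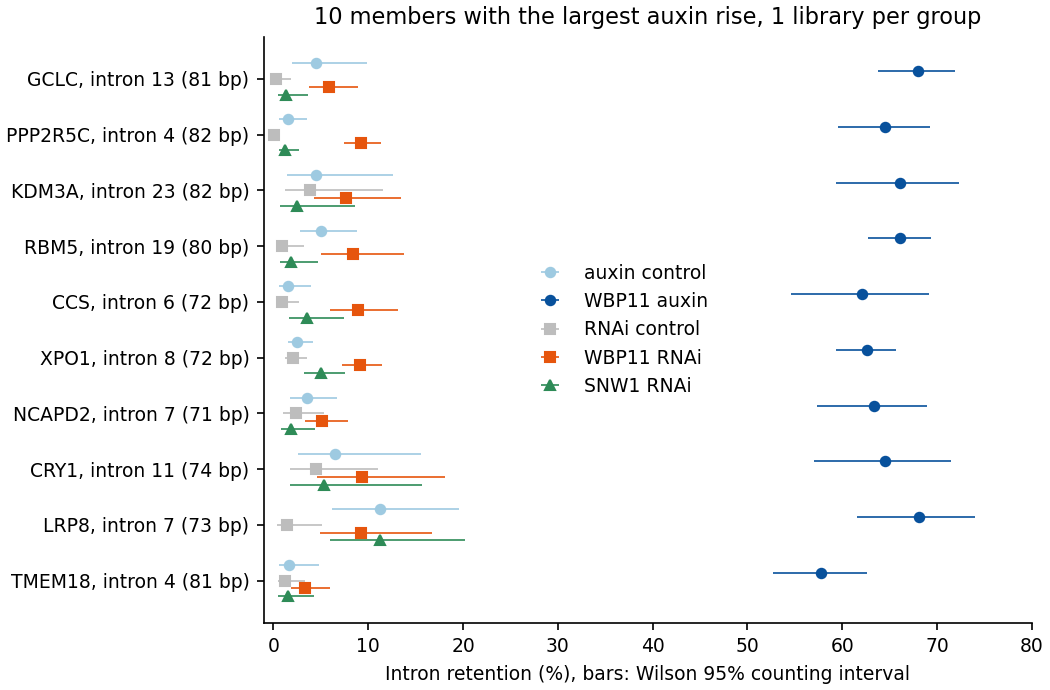
Intron retention (%, x axis) of the 10 members with the largest auxin rise (y axis), with 1 point per library and bars for the Wilson 95% counting interval. WBP11 auxin values lie between 57.7% and 68.1%, and all other libraries lie at or below 11.2%.

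Across all 730 members, the median retention was 3.43% in the auxin control and 22.2% in WBP11 auxin. It was 2.08% in the siRNA control, 4.74% in WBP11 RNAi and 6.86% in SNW1 RNAi. The median auxin rise was 16.8 points, with quartiles of 12.6 and 25.7 points and a maximum of 63.5 points. Of the 5 libraries, WBP11 auxin had the highest retention in 713 members (97.7%). The counting interval of the rise lay above 0 in 644 members. Over all 8601 measured introns, 21.7% rose in the auxin comparison, 11.1% in WBP11 RNAi and 26.0% in SNW1 RNAi, and the median differences were 2.23, 0.932 and 4.23 points.

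The rule is a limit and not a gap, and many members moved in the siRNA libraries without reaching it. In WBP11 RNAi, 393 members were above the control by up to 5 points and 163 by 5 to under 10 points. A further 166 were below the control by under 10 points and 8 fell by at least 10 points. In SNW1 RNAi the corresponding counts were 375, 271, 77 and 7. The median difference of the members was 2.25 points in WBP11 RNAi and 3.71 points in SNW1 RNAi, and the 2 comparisons share their control library. Only 376 members were less than 5 points above the control in both siRNA comparisons, and 354 were within 5 points of the limit in at least 1. The auxin interval lay wholly above both siRNA intervals in 331 members (45.3%). This describes the values that chose the members and is no test of them.

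**Figure D2:**
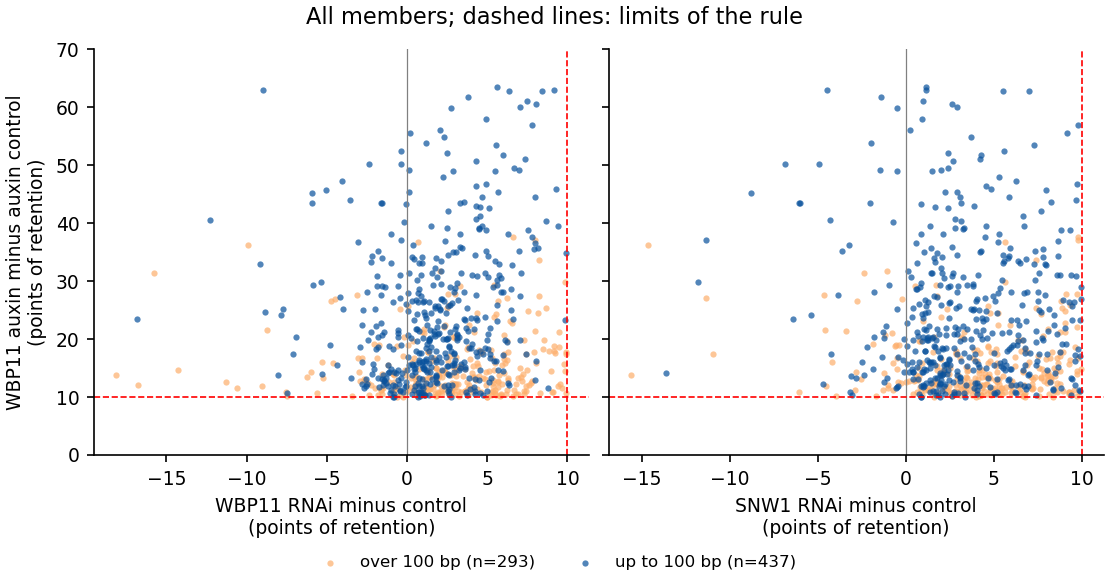
Difference in retention between WBP11 auxin and its control (y axis, points) against the difference in WBP11 RNAi (left) or SNW1 RNAi (right) for all 730 members, with blue points for introns of up to 100 bp and orange points for longer ones. Dashed lines mark the limits of 10 points, and no intron over 100 bp has an auxin rise of 40 points or more.

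Introns at the edge of the rule show how narrow the boundary is. PAPOLA intron 8, in the gene of a poly(A) polymerase, was inside with an auxin rise from 0.733% to 10.7%. EMC1 intron 8, in a subunit of an endoplasmic reticulum insertase, was outside with a rise of 9.98 points, from 7.04% to 17.0%. KLC4 intron 9, in a kinesin light chain gene, was inside with a rise of 10.0 points whose interval reached from -0.666 to 26.0 points. TONSL intron 22 was outside with 9.98 points. At the WBP11 RNAi limit, KCTD13 intron 3 was inside with 9.94 points and CDK5RAP3 intron 12 with 9.90 points, while PLCD1 intron 12 and ATP2A1 intron 18 were outside with 10.0 and 10.1 points. KCTD13 is an adaptor of a ubiquitin ligase, and its intron rose by 34.8 points with auxin. At the SNW1 RNAi limit, KLHDC3 intron 5 with 9.99 points and FAM98C intron 2 with 9.96 points were inside, and KYAT1 intron 10 with 10.0 points and KIF21B intron 25 with 10.1 points were outside. The interval of the auxin rise was 6.94 to 13.4 points in PAPOLA and 3.41 to 16.0 points in EMC1, so introns on either side of a limit overlap within counting error.

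The members were shorter than the other measured introns, and length was not used by the rule. Their median length was 90 bp, with quartiles of 81 and 400 bp and a 95% interval of the median of 88 to 92 bp. Of the members, 437 (59.9%, Wilson 95% interval 56.3 to 63.4%) were at most 100 bp long. The same share was 21.5% over all 8601 measured introns, 12.9% of the 5405 introns that rose in no table and 38.3% (34.2 to 42.7%) of the 501 introns that rose in all 3 tables. Introns that rose with auxin and in WBP11 RNAi but not in SNW1 RNAi resembled the members, with 59.6% (51.6 to 67.1%) of 151 introns at most 100 bp long. Of the 481 introns that rose with auxin and in SNW1 RNAi but not in WBP11 RNAi, 48.4% (44.0 to 52.9%) were that short. Of all 1863 measured introns that rose with auxin, members included, 952 were at most 100 bp long, so short length was not particular to the members.

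**Figure D3:**
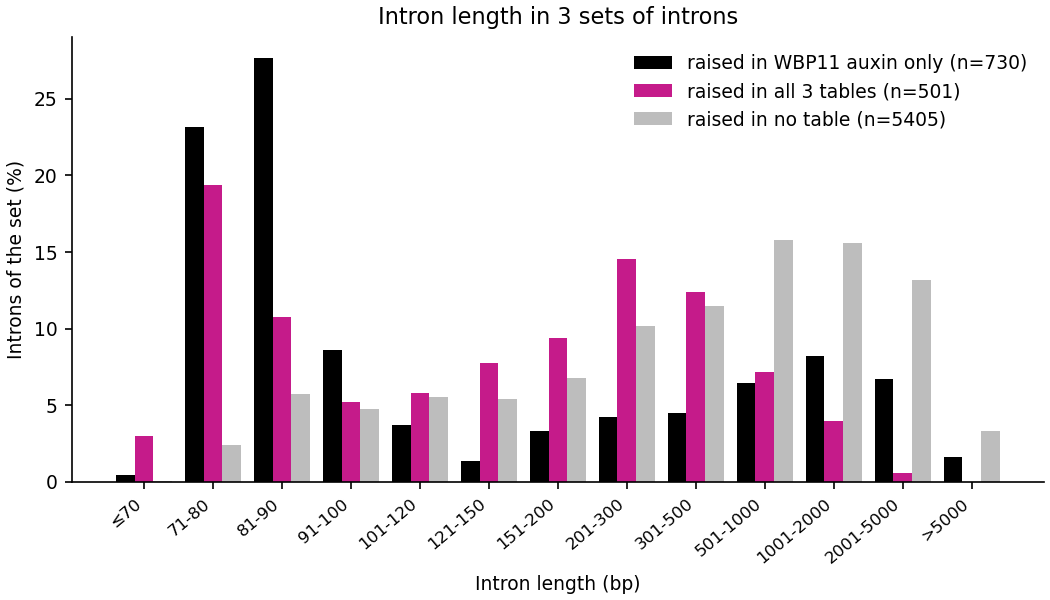
Share of introns (%, y axis) by length (bp, x axis) for the 730 members (black), the 501 introns raised in all 3 tables (magenta) and the 5405 introns raised in none (grey). The members peak at 71 to 90 bp, whereas introns raised in none are mostly longer than 200 bp.

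The share of measured introns that were members followed length in steps. It was 28.3% (169 of 598) at 71 to 80 bp, 26.6% (202 of 760) at 81 to 90 bp and 14.3% (63 of 441) at 91 to 100 bp. It then fell to 5.52% between 100 and 120 bp and to 3.06% in the next class, up to 200 bp. Above 1000 bp it was 5.55% at 1003 to 2999 bp and 6.54% (35 of 535) in the longest class, up to 20014 bp. The shortest class, 56 to 70 bp, held only 3 members among 49 introns (6.12%, interval 2.10 to 16.5%). In that class 85.7% of the introns rose with auxin, 83.7% in SNW1 RNAi and 38.8% in WBP11 RNAi, so few rose with auxin alone. Among only the introns that rose with auxin, the share that were members did not fall steadily with length. It was 39.2% at 71 to 80 bp, 56.7% at 81 to 90 bp and 20% in the class up to 200 bp. At 1003 to 2999 bp it was 55.1%, and in the longest class 79.5%.

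The relation to length in each comparison is given side by side, and the difference between them was not tested. The share of introns that rose with auxin declined from 72.1% at 71 to 80 bp to 46.8%, 27.9% and 18.8% in the next 3 classes and was 8.22% in the longest class. In WBP11 RNAi it was 24.6% at 71 to 80 bp, 10.2% (7.71 to 13.4%) at 91 to 100 bp and 15.4% (13.4 to 17.6%) in the class up to 200 bp. In SNW1 RNAi it was 43.1%, 25.2% and 35.0% in the same 3 classes and 3.55% in the longest class. In both siRNA comparisons, which share a control, the share was thus higher between 120 and 200 bp than at 91 to 100 bp. In the class up to 200 bp, 15.3% of the introns rose with auxin, and 20% of these were members. The rule leaves out every intron that rose in an siRNA comparison, so few members in that class follow in part from the rule. Of all measured introns of up to 100 bp, 51.5% rose with auxin and 23.6% were members.

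**Figure D4:**
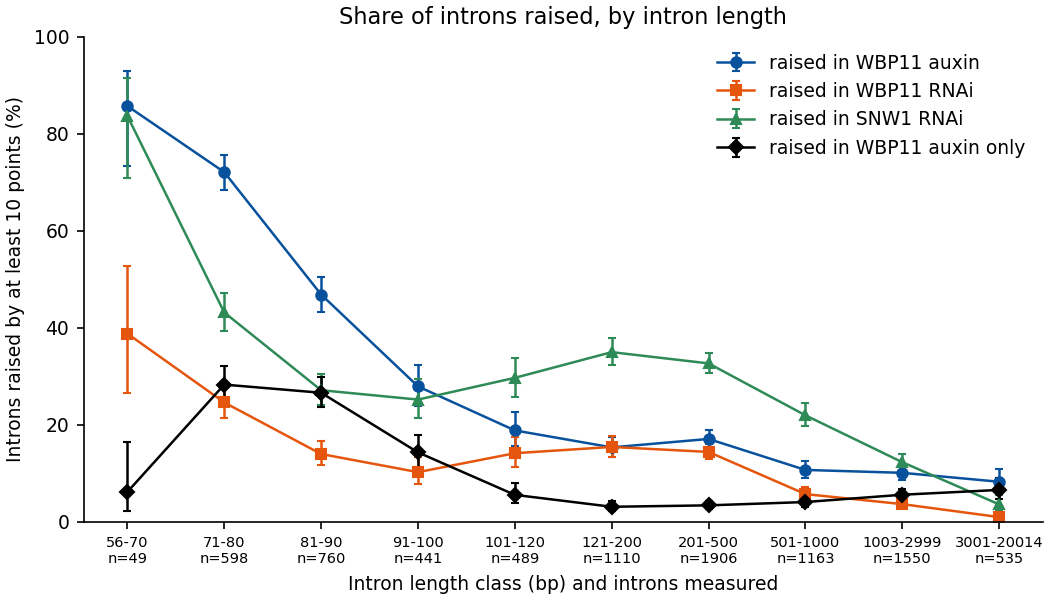
Share of measured introns (%, y axis) that rose by at least 10 points in each comparison, and that were members (black), by intron length class (x axis, bp, with the number of introns), with Wilson 95% intervals. The auxin share drops from 72.1% to 18.8% between the class of 71 to 80 bp and the class up to 120 bp, and the member share drops from 28.3% to 5.52%.

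Size of the rise and length went together within the members, although the size was part of the rule. The median rise was 20.8 points for the 437 members of up to 100 bp and 13.4 points for the 293 longer ones. Of the 283 members with a rise of at least 20 points, 84.1% were at most 100 bp long, as were 119 of 126 with at least 30 points, and all 56 with at least 40 points. The interval of the rise lay above both siRNA intervals in 284 of the short members (65.0%) and in 47 of the longer ones (16.0%). Short members were also measured more deeply, with a median summed depth and spliced read count of 195.6 in WBP11 auxin against 102.2 for the longer ones, and the part of this in the result was not tested. VPS13D, a lipid transfer protein, and TNKS2, a tankyrase that modifies axin, were among the longer members. The last intron of VPS13D, of 1799 bp, went from 4.74% to 26.3%, and intron 3 of TNKS2, of 2040 bp, from 1.09% to 26.5%. The TNKS2 rise of 25.4 points had an interval of 1.39 to 41.6 points at a depth of only 15 in the auxin control. TNKS2 also rose by 8.65 points (-9.77 to 30.3) in WBP11 RNAi and 8.88 points (-9.39 to 26.7) in SNW1 RNAi. These rises were close to the limit of 10 points, with intervals on both sides of it. VPS13D was below the siRNA control by 8.70 points in WBP11 RNAi and 4.57 points in SNW1 RNAi.

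Position in the gene differed less from the other introns than length did. Most lay between coding exons (716), with 11 in a 5′ untranslated region and 3 in noncoding transcripts. The last intron of the transcript made up 9.59% of the members (7.66 to 11.9%), against 12.5% of all measured introns and 13.8% of those that rose in no table. The first intron made up 3.01% (2.0 to 4.52%), against 4.46% of all measured introns. Member transcripts had a median of 16 introns, against 14 over all measured introns. An annotated exon overlapped 44 members (6.03%), against 6.05% of all measured introns.

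The exon bases beside the members were close in GC content to those of all measured introns. GC content of up to 50 exon bases on each side, available for 727 members, had a median of 55.0% in the members (54.0 to 56.0%), 56.0% over all measured introns, 54.0% in introns that rose in no table and 60.0% (59.0 to 61.0%) in those that rose in all 3 tables. Among introns of up to 100 bp it was 57.0% (55.0 to 58.0%) in the members, 59.0% (58.0 to 59.0%) over all measured, 59.0% (58.0 to 59.0%) in those raised in no table and 61.0% (59 to 62%) in those raised in all 3. The last base of the upstream exon was G in 76.2% of the members (73.0 to 79.2%) and in 76.0% of all measured introns, so the members did not stand apart. It was G in 67.8% (59.9 to 74.8%) of introns raised with auxin and in WBP11 RNAi, and in 86.4% (83.0 to 89.2%) of introns raised with auxin and in SNW1 RNAi. The members' retention in the auxin control, which the rule used, had a median of 3.43%, near the 2.51% of introns raised in no table and below the 16.6% of introns raised in all 3.

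Members in genes of the spliceosome are given first, and their shares stand beside the 8.49% over all measured introns without a test. The share was 23.6% among all measured introns of up to 100 bp. The gene lists differed in how many such introns they held, and list shares were not adjusted for length. Among U1, U2 and U4/U6.U5 snRNP proteins, 2 of 28 measured introns were members (7.14%), and both belong to the SF3b complex, which binds the branch site. SF3B2 intron 18, of 85 bp at chr11:66063543-66063627 on the plus strand, was at 0.221% in the auxin control and 39.7% in WBP11 auxin. It was at 0.228% in the siRNA control, 4.89% in WBP11 RNAi and 1.61% in SNW1 RNAi. SF3B1 intron 19 went from 0.525% to 16.2% with auxin and stayed within 0.314 points of the control in both siRNA libraries. Among the PRP19 complex and factors of the activated and catalytic spliceosome, 9 of 59 measured introns (15.3%) in 7 genes were members. DDX41, an RNA helicase, had intron 8 at 4.26% and 47.9% with auxin, and a rise of 8.29 points in SNW1 RNAi. PAXBP1 differed, since its intron 6 of 507 bp was at 55.8% in the siRNA control and 23.9% in the auxin control. It was at 60.1% in WBP11 auxin, 45.9% in WBP11 RNAi and 41.1% in SNW1 RNAi. The siRNA control was thus nearly as high as WBP11 auxin, and the auxin control alone was low.

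Among SR proteins, CLK kinases and hnRNPs, 6 of 41 introns (14.6%) were members. HNRNPH3 intron 8, which overlaps an annotated exon, went from 3.81% to 36.2% with auxin and rose by 1.75 and 2.03 points in WBP11 RNAi and SNW1 RNAi. CLK4, a kinase of SR proteins, had its last intron at 11.2% and 38.4%, with an interval of the rise of 9.41 to 39.8 points at a depth of 32.7 in the auxin control. Its siRNA differences had wide intervals, of -20.6 to 14.7 points in WBP11 RNAi and -15.6 to 21.4 points in SNW1 RNAi.

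Some genes of chromosome segregation held large rises, but the median rise of the members differed between these lists. It was 39.1 points in the list of cohesion and condensin. In the list of kinesins, dyneins and spindle proteins it was 15.8 points and in the centrosome list 13.8 points, against 16.8 points over all members. In the list of the anaphase-promoting complex and spindle checkpoint, 7 of 32 measured introns (21.9%) in 5 genes were members, against 8.49% of all measured introns, with a median rise of 40.6 points. ANAPC4, a subunit of that ubiquitin ligase, held 3 of them. CDC23, another subunit, had intron 14 at 5.50% in the auxin control and 46.2% in WBP11 auxin, and at 1.91%, 6.20% and 4.73% in the siRNA control, WBP11 RNAi and SNW1 RNAi. In the list of cohesion and condensin, 5 of 39 introns (12.8%) were members. SGO1, which protects centromeric cohesion, had intron 2 at 0.821% and 44.3% with auxin and at 2.02% and 0.441% in the siRNA control and WBP11 RNAi. In SNW1 RNAi no SGO1 read kept it, which allows a share of up to 6.52% at a depth of 46.

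CDCA5 encodes sororin, which stabilises cohesin on sister chromatids, and 2 of its 4 measured introns were members. Intron 3, of 85 bp at chr11:65083400-65083484 on the minus strand, was at 0.869% in the auxin control, 39.9% in WBP11 auxin, 1.68% in the siRNA control, 4.15% in WBP11 RNAi and 5.00% in SNW1 RNAi. Intron 2, of 78 bp, was at 3.01%, 26.6%, 0.307%, 1.5% and 2.75%. The 209 bp intron 1 of CDCA5 had another pattern, at 21.2%, 33%, 3.77%, 29.9% and 69.2%, and so rose in all 3 comparisons.

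Of 113 measured introns of the centrosome list, which covers the γ-tubulin complex and centriole proteins, 10 were members (8.85%), a share close to that of all introns. CENPJ, a centriole elongation factor, had intron 15 at 10.3% in the auxin control and 54.8% in WBP11 auxin, and at 0.961%, 5.67% and 6.84% in the siRNA control, WBP11 RNAi and SNW1 RNAi. WDR62, a spindle pole protein, had intron 27 at 1.86% and 23.1% with auxin, and below its control in both siRNA libraries. TUBGCP6 encodes a γ-tubulin ring complex subunit, and 8 of its 13 measured introns rose with auxin but only the last was a member. That 90 bp intron went from 8.84% to 21.8%, and its interval of 2.06 to 23.9 points was wide. In the list of kinesins, dyneins and spindle proteins, 10 of 71 introns (14.1%) were members. KIF1C, a kinesin, had no read that kept intron 10 in the auxin control, which allows up to 0.761%, and was at 38.1% in WBP11 auxin, 6.51% in WBP11 RNAi and 1.09% in SNW1 RNAi.

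Genes of DNA replication held 9 members among 46 measured introns (19.6%), and those of DNA repair 9 among 103 (8.74%). In the replication list 20 of the 46 introns were at most 100 bp long, and 7 of these were members. In the repair list 25 of the 103 were that short, and 6 of these were members. CDT1, which licenses replication origins, had intron 8 at 11.2% and 53.3% with auxin and at 2.42%, 4.98% and 10.1% in the siRNA control, WBP11 RNAi and SNW1 RNAi. FANCL, the ubiquitin ligase of the Fanconi anaemia pathway, had intron 10 at 31% and 59.1% with auxin, with IRFinder's minor isoform warning in WBP11 auxin. It rose by 5.89 points (-9.47 to 26.0) in WBP11 RNAi and 5.98 points (-6.79 to 20.6) in SNW1 RNAi. Both intervals reach past the limit of 10 points. RECQL4 is a DNA helicase in both lists, and 3 of its 13 measured introns were members. Its intron 7, of 83 bp, was at 3.31% and 37.3% with auxin and at 4.24%, 2.71% and 5.85% in the siRNA control, WBP11 RNAi and SNW1 RNAi, and carried the same warning. The rise recomputed with exactly spliced reads was 45.1 points in both FANCL and RECQL4, against 28.1 and 34.0 points from the deposited ratio.

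RNA turnover and export genes were also represented. Of 63 measured introns in genes of mRNA decay, 11 were members (17.5%). XRN2, the nuclear exoribonuclease that acts in transcription termination, had intron 5 at 1.32% and 47.7% with auxin and at 0.123%, 4.39% and 4.68% in the siRNA control, WBP11 RNAi and SNW1 RNAi. XRN1, the cytoplasmic counterpart, had intron 7 at 36.2% in WBP11 auxin, but at a depth of 14 in the auxin control its interval was 10.1 to 54.1 points. Of 95 introns in genes of mRNA end formation and nuclear transport, 14 were members (14.7%). In this list 39 of the 95 introns were at most 100 bp long, and 12 of these were members. Besides XPO1, the importin gene IPO4 had intron 20 at 5.67% and 61.2% with auxin, at 1.09% and 1.27% in the siRNA control and WBP11 RNAi, and at 10.3% in SNW1 RNAi, 9.18 points above its control.

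Chromatin genes had 23 members among 188 measured introns (12.2%) in 16 genes. Besides KDM3A, the remodeller gene CHD8 had intron 24 at 2.78% and 52.2% with auxin, and at 6.67% and 2.38% in WBP11 RNAi and SNW1 RNAi. No CHD8 read kept that intron in the siRNA control, which allows up to 5.08%. The list of RNA polymerase II and elongation factors had 6 members among 96 (6.25%). PAF1, the namesake of an elongation complex, had intron 8 at 5.25% and 36.2% with auxin. POLR2B, the second largest subunit of the polymerase, had intron 20 at 12.4% and 29.9% with auxin, and was below the siRNA control by 7.09 points in WBP11 RNAi and by 4.24 points in SNW1 RNAi.

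The remaining pathway lists held shares from 4.44% to 15% of their measured introns, on both sides of the 8.49% over all of them. Ubiquitin-specific proteases had 6 members among 61 introns (9.84%). USP15 had intron 9 at 45.4% in WBP11 auxin and no read that kept it in the auxin control, which allows up to 3.53%, and its rise recomputed with exactly spliced reads was 52.5 points. USP19 had intron 15 at 4.02% and 41.7%, and it rose by 7.78 points in WBP11 RNAi and 4.51 points in SNW1 RNAi. Aminoacyl-tRNA synthetases had 6 among 40 (15%), each in a different gene. RARS2, the mitochondrial arginyl enzyme, had intron 15 at 1.65% and 37.6% with auxin, and FARSA, a phenylalanyl enzyme subunit, had intron 8 at 1.98% and 27.9%. Golgi and membrane traffic genes had 6 among 135 (4.44%), including intron 13 of TRAPPC11, a tethering complex subunit, at 1.43% and 37.1%. That intron rose by 8.14 points in WBP11 RNAi and 5.93 points in SNW1 RNAi. The WNT and APC list had 2 among 27 (7.41%), GSK3A intron 5 at 2.77% and 42.0% and the TNKS2 intron above. The p53 target list had 2 among 42 (4.76%), PIDD1 intron 8 at 17.5% and 41.0% and FDXR intron 10 at 8.68% and 21.7%. PIDD1 rose by 6.60 and 4.02 points in WBP11 RNAi and SNW1 RNAi, and FDXR by 5.35 and 8.10 points. Colon epithelium markers had 0 members among 3 measured introns, and no intron of the other cell type markers was measured. None of the list shares was tested against the background.

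Most genes held 1 member (548 genes), 66 held 2, 11 held 3, 3 held 4 and 1 held 5. Agrin, a heparan sulfate proteoglycan encoded by AGRN, held 5 among its 13 measured introns. Introns 5, 8, 15 and 21, of 80 to 88 bp, were at 58.0%, 36.3%, 30.1% and 32.3% in WBP11 auxin, and intron 7, of 1076 bp, was at 16.8%. In the siRNA libraries these 5 introns were at most at 9.48%. Their neighbours behaved differently: intron 16, of 71 bp, was at 61.5% in WBP11 auxin but also at 19.98% in WBP11 RNAi and 28.7% in SNW1 RNAi, and intron 19, of 369 bp, was at 40.4% in SNW1 RNAi and 20.1% in WBP11 auxin, against 18.7% in its control.

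SBF1, a phosphoinositide phosphatase relative without catalytic activity, held 4 members among 11 measured introns. Introns 32, 34 and 35, each 71 bp long, were at 19.0%, 32.4% and 19.9% in WBP11 auxin. Intron 33 of 81 bp between them was at 25.7%, but it also reached 26.7% in SNW1 RNAi. Intron 7 of SBF1 went from 6.56% to 52.4% with auxin and was at 10.5% in WBP11 RNAi, a rise there of 9.31 points. FLII, a gelsolin family protein, held 4 members of 83 to 99 bp at 23.4% to 40.2% in WBP11 auxin. TLN1, the talin that links integrins to actin, held 4 members among 9 measured introns. They reached 11.9% to 22.6% in WBP11 auxin, and 2 of them were longer than 100 bp.

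ANAPC4 showed the contrast with length in 1 gene. Its members, introns 1, 15 and 23 of 73, 83 and 80 bp, were at 60.7%, 51.5% and 47.0% in WBP11 auxin, against 11.5%, 1.35% and 6.48% in its control. Its other 4 measured introns, of 1017 to 3853 bp, were at 1.49% to 2.91% in WBP11 auxin and at 1.41% to 4.31% in the control. Intron 23 was at 21.4% in the siRNA control and 9.14% in WBP11 RNAi. Intron 1 lies in the 5′ untranslated region and overlaps an annotated exon. Other genes did not follow length throughout. In FLII, whose members were all short, intron 10 of 325 bp, not a member, was at 27.6% in WBP11 auxin. Its intron 17 of 78 bp was at 7.96%. In TLN1 the members rose by 22.4 and 10.0 points at 182 and 157 bp, and by 14.3 and 11.9 points at 79 and 98 bp.

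**Figure D5:**
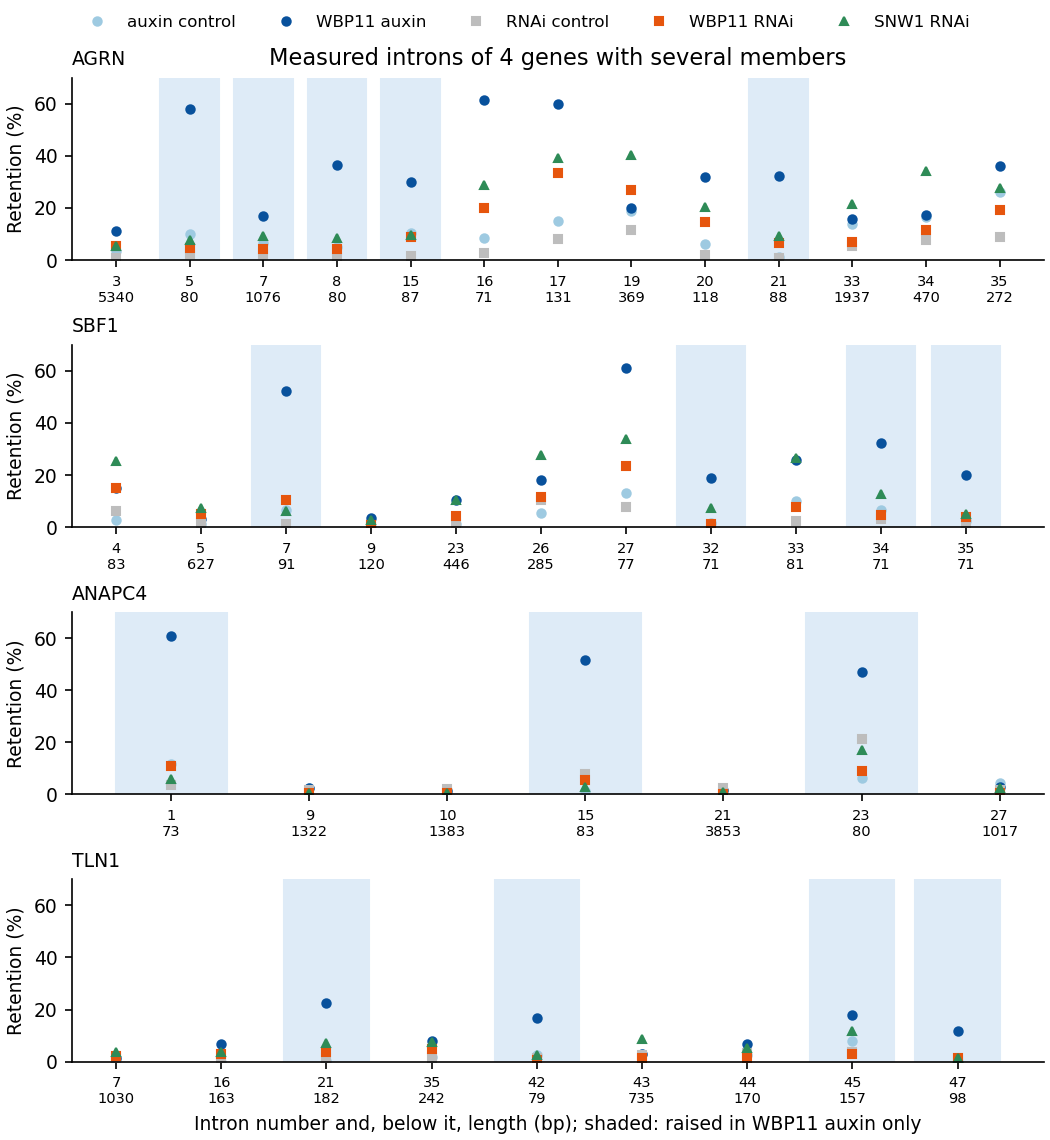
Retention (%, y axis) in the 5 libraries for each measured intron of AGRN, SBF1, ANAPC4 and TLN1, in order of intron number with the length in bp below (x axis); members are shaded. In ANAPC4 the 3 short introns reach 47.0% to 60.7% in WBP11 auxin and the 4 long introns stay below 3%.

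The other introns of the same genes were also counted. Of 1598 other measured introns in the 629 genes, 355 (22.2%) rose with auxin, against 12.4% of 6273 introns in genes without a member. Both shares leave out the members. Over all measured introns, members included, the share was 21.7%, and among those of up to 100 bp it was 51.5%. Because members count in these, they are not a like background for the 22.2%. The groups of genes were set by the same retention values. Intron length was not matched between the groups of genes, and their difference was not tested. Among the 900 introns of up to 100 bp in these genes, 437 were members. Of the 463 others, 176 rose with auxin and in at least 1 siRNA comparison, and 219 rose in no table. In XPO1 the member was the only measured intron, and in NCAPD2 the other, intron 23 of 79 bp, went from 2.39% to 9.72% with auxin. Members that are neighbouring introns of a transcript formed 20 pairs.

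In the auxin table taken alone, 3015 introns (13.8% of those measured there) rose. Of these, 1094 were not listed in all 3 tables and so could not be members, including 480 listed in neither siRNA table. Another 58 were listed in all 3 tables but were under the depth minimum in an siRNA table.

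A few members moved in opposite directions in the WBP11 comparisons, which the rule allows because it sets no lower limit for the siRNA differences. BUB1B, a spindle checkpoint protein, had intron 7 at 4.89% in the auxin control, 19.6% in WBP11 auxin, 23.4% in the siRNA control, 9.12% in WBP11 RNAi and 25.2% in SNW1 RNAi. UQCC1, an assembly factor of respiratory complex III, had its last intron at 11.2%, 23.2%, 20.1%, 3.34% and 23% in the same order. Both were higher in the siRNA control than in the auxin control. Among all members, the siRNA control was at least 10 points above the auxin control in 17, and at least 10 points below it in 16.

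WBP11 and SNW1 themselves held no member. Spliced reads across WBP11 intron 11 numbered 8 in WBP11 RNAi and 136 in the siRNA control, and across intron 7 they numbered 12 and 176. In the auxin comparison, spliced reads at WBP11 intron 1, in the 5′ untranslated region, numbered 103 in WBP11 auxin and 235 in the control. This does not measure the tagged protein. SNW1 introns 5 and 4 had 14 and 17 spliced reads in SNW1 RNAi, and their control counts are not given here, so no fall is shown. The last intron of SNW1, of 80 bp, was not listed in the SNW1 RNAi table and so could not be a member. It was at 4.75% in the auxin control and 57.5% in WBP11 auxin, and at 3.20% and 7.58% in the siRNA control and WBP11 RNAi.

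Spliced reads over the listed introns numbered 2987572 to 5527186 per library and table, which is part of each library and not its depth. The median summed depth and spliced read count of the members was 119 to 161 across the libraries. Of 9 colon epithelium markers, 5 had a listed intron, with 403 to 45828 spliced reads, whereas no fibroblast (7) or endothelium (4) marker and 1 of 7 leukocyte markers (2 to 39 reads) did. Introns were listed by their retention and warnings, so a marker without a listed intron may still be expressed. The colon epithelium markers EPCAM, VIL1, LGALS4 and KRT20 were not listed either. In WBP11 auxin, IRFinder warned of uneven coverage in 130 members and of a minor isoform in 42.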

How the data were processed

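PolyA RNA of 5 DLD-1 libraries was compared in 3 deposited tables, which per the file headers are IRFinder comparisons, made with strand taken into account, of STAR genome alignments to hg38. RSEM and bedtools are named beside hg38 in the submitters' processing notes, without versions. The retention ratio is a fraction as deposited by the authors, in principle the intron's part of the depth and spliced reads. Per the file headers, depth is the coverage signal of an intron, and spliced reads were deposited as a count (the larger of the counts at the 2 ends of the intron, and also the exact junction). Nothing was scaled between libraries. Reads from an overlapping exon or gene can raise the ratio.

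Introns were joined across the tables by chromosome, start, end and strand, and matched to GENCODE release 29, which also gave sequences. All 34560 introns matched. Wilson and Newcombe 95% intervals used the summed depth and spliced reads as n. They cover counting error only, because reads are not independent molecules. With 1 library per group, neither a model nor a p-value was computed. The siRNA control was the same library in both tables, with equal values at all 8927 introns listed in the 3 tables. The tables list only introns that reached 1% and had no warning in at least 1 library. The code of the rule was run on simulated data with counting error only. That run does not cover differences between cell lines or replicates. Python 3.11.15, numpy 2.4.6, pandas 2.3.3, scipy 1.17.1 and matplotlib 3.10.9 were used.

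The members and the 20 gene lists were chosen with earlier results of these data known. Named introns are the 10 members with the largest auxin rise and the 5 with the largest gap to the siRNA differences (1 per gene, depth at least 30), 2 per gene list, those of WBP11, SNW1, TUBGCP6 and CDCA5, those of the 5 genes with the most members, the 2 nearest to each limit, and up to 3 that fell in WBP11 RNAi. Alternatives were other limits, depth minimums, warnings, exon overlap, 1 intron per gene and, chosen after seeing the data, a recomputed ratio and the exon GC content.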

Additional observations from a re-analysis of the deposited data

Results flagged for a closer look

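Of the members, 8 rose by at least 10 points with auxin and fell by at least 10 points in WBP11 RNAi, and the difference between the 2 directions was not tested. The rule sets no lower limit in the siRNA comparisons. The share of all measured introns that fell in WBP11 RNAi is not given here, so the count is no trait of the members. The differences in WBP11 RNAi were -18.1 points in ACOX3 intron 13, -16.8 points in DAGLA intron 11, -16.8 points in UQCC1 intron 9 and -15.8 points in STK36 intron 22. They were -14.3 points in BUB1B intron 7, -12.3 points in ANAPC4 intron 23, -11.3 points in SRSF1 intron 3 and -10.6 points in SLC29A2 intron 7. The counting interval of the fall extended to a rise in ACOX3 (-36.1 to 0.0505 points) and STK36 (-39.4 to 8.34 points). It did so too in ANAPC4 (-27.8 to 3.52 points) and SLC29A2 (-19.7 to 0.36 points). The interval of the auxin rise extended to a fall in ACOX3 (-10.7 to 37.9 points) and SLC29A2 (-1.87 to 25.5 points). SRSF1 intron 3 was the most deeply measured: it was at 10.6% in the auxin control, 23.3% in WBP11 auxin, 35.0% in the siRNA control, 23.7% in WBP11 RNAi and 34.6% in SNW1 RNAi.

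Among the 1094 introns that rose with auxin but were not listed in all 3 tables, 480 were listed in neither siRNA table. They could not be members. Their median retention was 5.49% in the auxin control and 23.4% in WBP11 auxin, with a median rise of 15.9 points. They had a median length of 294.5 bp, and 146 (30.4%) were at most 100 bp long. Their retention in the siRNA libraries is not known.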

How the results depend on the processing

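The number of members moved with the limits: it was 1503, 426, 283 and 126 with auxin rises of at least 5, 15, 20 and 30 points, 376 and 56 with siRNA limits of 5 and 0 points, 357 without IRFinder warnings in the auxin libraries, and 331 with the auxin interval above both siRNA intervals. It stayed within 1.5 times of 730 with other depth minimums (763 with none, 512 with 50), without exon overlaps (686) and with a ratio recomputed as depth over depth plus spliced reads (754, of which 715 were shared). The share of up to 100 bp was 84.1% and 94.4% with rises of at least 20 and 30 points and 66.0% at a depth of 50, and the median length was 82, 81 and 87 bp. The share of last introns was 7.14% at 30 points. The deposited ratio of WBP11 auxin lay below the ratio recomputed from all spliced reads by over 0.1 points in 261 members, by up to 16.7 points. With only reads spliced exactly at both ends of an intron, 791 introns were members (706 shared), and the rise was 69.0 points in PPP2R5C, 45.1 points in RECQL4, 45.1 points in FANCL and 52.5 points in USP15, outside their counting intervals, and inside it in 74 of the 78 named introns. Of the 20 gene lists, 14 had counts that moved by over 1.5 times with rises of at least 20 points, and 1 with a depth minimum of 20. Intron GC and splice site scores of the set were not run, since 26.8% of members had a sequence. No paired analysis was possible because each group has 1 library.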
